A study of Rattus norvegicus with 12 samples.

Results

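The genes followed here are 10 that encode feedback inhibitors of MAP kinase signalling: the phosphatase genes Dusp1, Dusp2, Dusp4, Dusp5, Dusp6 and Dusp10, the Sprouty genes Spry1, Spry2 and Spry4, and the Sprouty-related gene Spred1. They were picked by name, by taking each array probe whose gene name is one of these once a suffix for predicted or mapped genes was dropped. This gave 10 of the 35537 named genes or transcripts on the array, with 14 probes. Of the 14 probes, 13 passed the filter on dim probes, and 9 of the 10 genes could be tested. Dusp10 failed the filter, because its probe was well above background in 0 of 12 arrays in either channel.

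The RNA came from F11 cells, a hybrid line of rat dorsal root ganglion neurons and mouse neuroblastoma cells, so mouse transcripts may also have bound the rat probes. All cells spent 3 h in medium with 0.5% serum. Those of the 4 treated groups then received 10 µM forskolin, an activator of adenylyl cyclase that raises cyclic AMP, for 2, 4, 24 or 48 h, with 3 samples per time. The reference was F11 RNA taken after the low-serum step without forskolin, and it was hybridised to each of the 12 arrays together with a forskolin sample. Forskolin RNA carried the green dye Cy3 and reference RNA the red dye Cy5 on every array, with no dye swap, so a dye effect peculiar to 1 probe stays in each ratio against the reference. No untreated cells were collected at the later times, so time in low serum and forskolin cannot be told apart. The labels do not say that replicates were separate cultures, so the spread behind each p-value may be only technical. The reference counts as 1 control sample, and its own spread is left out of the test.

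MAP kinases such as ERK, JNK and p38 are switched on by phosphorylation of a threonine and a tyrosine, and dual-specificity phosphatases remove both phosphates. Sprouty and Spred proteins sit at the membrane and restrain the step from growth factor receptors through Ras and Raf to ERK. Several of these genes are themselves transcribed when ERK is active, and in neurons and neuroendocrine cells cyclic AMP can raise or lower ERK activity depending on the cell.

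Values are log2 ratios of forskolin over reference. The value table that the authors deposited runs as reference over forskolin, so its signs are opposite to those given here. A gene is called where its Benjamini-Hochberg adjusted p in limma was under 0.05 over the 17805 genes tested.

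The feedback genes did not move as a block. Dusp1 rose 4.11-fold at 2 h and Dusp2 rose 1.61-fold, whereas Dusp6 was already 1.31-fold below the reference. At 4 h Dusp5, Dusp6 and Spry1 were each 1.70-fold to 1.80-fold below the reference, and Dusp1 was still 1.80-fold above it, all after normalization between the dyes. Between 2 and 4 h, 6 of the 9 tested genes fell and 0 rose, where 10.1% of all genes fell and 5.54% rose. Dusp6 and Spred1 lost this call with median centring in place of loess, where 1.37% of all genes fell. Not every Spred1 probe fell. By 24 and 48 h, Dusp6 and Spry1 lay within 0.10 of the reference on the log2 scale after loess, and Dusp2 was 1.39-fold below it at 48 h.

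The probes that carry these results are shown because each reads only 60 bases of its transcript. Their sequences are from the deposited scanner files, 5′ to 3′, and positions are those of the files in rat build rn3. The Dusp1 probe lies on the plus strand of chr10:16945391-16945710, where its 60 bases are spread over 320 bases of genome. The others are unbroken: Dusp5 on chr1:259978481-259978540, Dusp6 on chr7:36917125-36917184, Spry1 on chr2:124168038-124168097 and Spred1 on chr3:103143145-103143204, all on the plus strand. No annotation of rn3 was used here, so exons and untranslated regions are not named.
Dusp1: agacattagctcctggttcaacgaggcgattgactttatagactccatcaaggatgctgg
Dusp5: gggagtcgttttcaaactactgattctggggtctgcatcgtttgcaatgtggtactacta
Dusp6: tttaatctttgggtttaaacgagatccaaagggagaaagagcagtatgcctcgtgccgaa
Spry1: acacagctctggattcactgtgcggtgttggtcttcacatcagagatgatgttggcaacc
Spred1: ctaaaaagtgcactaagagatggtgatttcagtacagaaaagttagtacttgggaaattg

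Promoter windows are shown for Dusp1, Dusp5 and Dusp6, a gene above the reference at both early times, the gene of the 9 with the smallest p for the step between them, and one below the reference at both. Each window holds 300 bases, from 250 before to 50 after the gene's start, in RefSeq's GRCr8 assembly, and 9 of the 10 genes had at least 1 window, for 10 windows in all. Dusp1 is on chr10:17184603-17184902, Dusp5 on chr1:262543524-262543823 and Dusp6 on chr7:35979354-35979653, all on the plus strand. Capitals mark matches to motifs searched on both strands. These were TGACGTCA, the cyclic AMP response element, and its core TGACG, which the full element holds on both strands. The AP-1 site TGANTCA and the CArG box bound by serum response factor were searched too, and neither contains the others.
Dusp1: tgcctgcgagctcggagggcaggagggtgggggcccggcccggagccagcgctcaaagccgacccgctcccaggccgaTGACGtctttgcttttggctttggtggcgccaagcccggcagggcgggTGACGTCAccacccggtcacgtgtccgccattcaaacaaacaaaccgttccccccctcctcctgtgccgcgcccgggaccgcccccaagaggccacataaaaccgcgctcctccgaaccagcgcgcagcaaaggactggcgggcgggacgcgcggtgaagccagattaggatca
Dusp5: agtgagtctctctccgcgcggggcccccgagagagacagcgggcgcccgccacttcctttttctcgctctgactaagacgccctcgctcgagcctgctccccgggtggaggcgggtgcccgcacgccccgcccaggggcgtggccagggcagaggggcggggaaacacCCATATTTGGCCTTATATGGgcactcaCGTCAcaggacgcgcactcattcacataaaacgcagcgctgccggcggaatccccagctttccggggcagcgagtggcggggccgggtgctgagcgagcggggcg
Dusp6: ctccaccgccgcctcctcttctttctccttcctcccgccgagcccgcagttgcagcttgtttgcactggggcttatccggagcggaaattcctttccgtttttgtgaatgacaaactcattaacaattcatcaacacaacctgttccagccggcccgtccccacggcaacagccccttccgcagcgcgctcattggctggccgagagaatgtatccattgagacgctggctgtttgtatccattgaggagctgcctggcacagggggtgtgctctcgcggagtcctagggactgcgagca

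The Dusp1 window holds 1 full element, from base -124 to base -117 relative to the start, and a separate core from base -172 to base -168. The Dusp5 window holds 2 CArG boxes side by side, from base -82 to base -73 and from base -72 to base -63, and 1 core on the minus strand from base -55 to base -51. The Dusp2 window holds a core on the minus strand from base -9 to base -5, and 1 of the 2 Spry2 windows a core from base -219 to base -215. These letters were not found in the windows of Dusp6, Dusp10, Spry1, Spry4 and Spred1. Of all 33469 windows in the table, 1.83% hold the full element, 21.2% the core, 7.33% the AP-1 site and 1.64% a CArG box. A match describes the letters only.

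Of 43379 non-control spots per array, 19889 to 21973 were well above background in green, which carried the forskolin RNA, and 19504 to 23285 in red. Of the genes listed as induced by cyclic AMP, 9 of the 9 tested rose at 2 h, where 10.0% of all genes rose. Their median was 2.22, against -0.02 for all genes. The list was chosen with earlier results of these data known, so this describes the response and is no independent check of the treatment. Bright probes leaned to the reference channel before loess. With median centring in place of loess, the median of all genes became -0.57, -0.58, -0.45 and -0.45 at 2, 4, 24 and 48 h, so values against the reference depend on this step, and those it turns are given with the genes. Neuronal markers were present, with 18 of 19 tested, whereas 3 of 9 glial, 4 of 7 fibroblast, 2 of 5 leukocyte and 2 of 4 endothelial markers passed the filter.

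**Figure D1:**
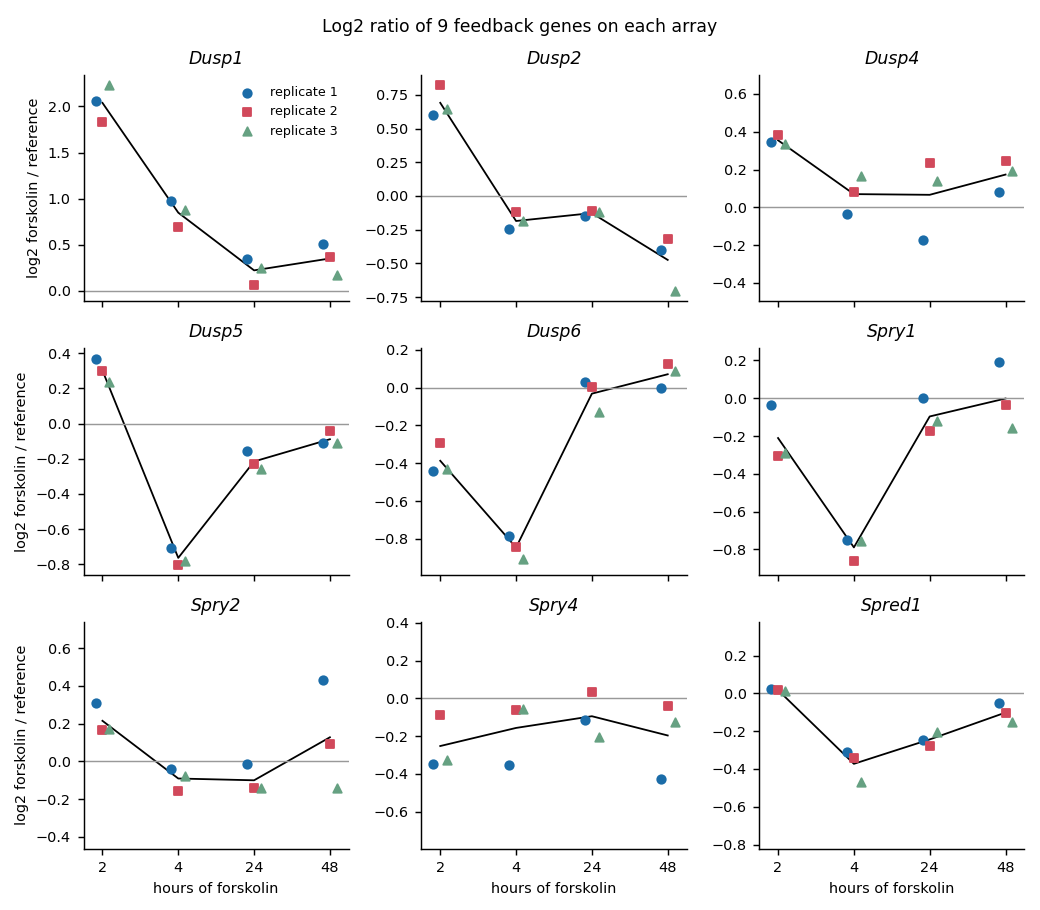
Log2 ratio of forskolin over reference (vertical axis) against hours of forskolin for the 9 tested genes, with 1 point per array, marked by replicate number, a black line through the means of 3 arrays and a grey line at 0. Vertical scales differ between panels: Dusp1 starts at 1.83 to 2.23, while Dusp5, Dusp6 and Spry1 are lowest at 4 h. The position of Dusp5 above 0 at 2 h depends on the loess step.

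Dusp1 encodes a nuclear phosphatase of ERK, p38 and JNK that is a classical immediate-early gene. Its log2 ratios were 2.05, 1.83 and 2.23 on the 2 h arrays and 0.97, 0.70 and 0.88 on the 4 h arrays. They were 0.35, 0.07 and 0.25 on the 24 h arrays and 0.51, 0.37 and 0.17 on the 48 h arrays. All 12 arrays lay above 0, and the 2 h arrays lay above all the others. The rise was 2.04 ± 0.20 (SD, n = 3, adjusted p = 8.63e-10) at 2 h and 0.85 ± 0.14 (adjusted p = 1.35e-06, or 1.80-fold) at 4 h. It was 0.22 ± 0.14 (adjusted p = 0.033) at 24 h and 0.35 ± 0.17 (adjusted p = 0.00204) at 48 h. The size at 2 h ranged from 1.40 to 3.17 over 11 ways of processing, and the probe is dim. The 24 h call was lost without 24 h replicate 1 (0.16, adjusted p = 0.208) or replicate 3 (0.21, adjusted p = 0.127), and with median centring the 24 h value was -0.06, or 0.39 above the median of all genes. The 48 h call was also lost with median centring (0.04, adjusted p = 0.716), at 0.49 above the median of all genes.

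The channels behind the ratio were dim for Dusp1. Background-subtracted forskolin signals averaged 218 ± 35.5 scanner units at 2 h, 75.9 ± 9.73 at 4 h, 44.7 ± 4.87 on the 24 h arrays and 53.7 ± 7.20 on the 48 h arrays (SD, n = 3). Reference signals on the same arrays averaged 89.9 ± 12.7, 79.9 ± 3.70, 83.2 ± 7.03 and 77.6 ± 18.1 units. The forskolin signal therefore exceeded the reference signal on each of the 2 h arrays before normalization, and lay below it on each 24 h and 48 h array. At 4 h it lay below the reference on replicates 1 and 2 (79.5 against 83.1 and 64.9 against 75.9 units). It lay above it on replicate 3 (83.4 against 80.8). The size of the ratio at 4 h and the positive ratios at 24 and 48 h rest on the normalization between the dyes.

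**Figure D2:**
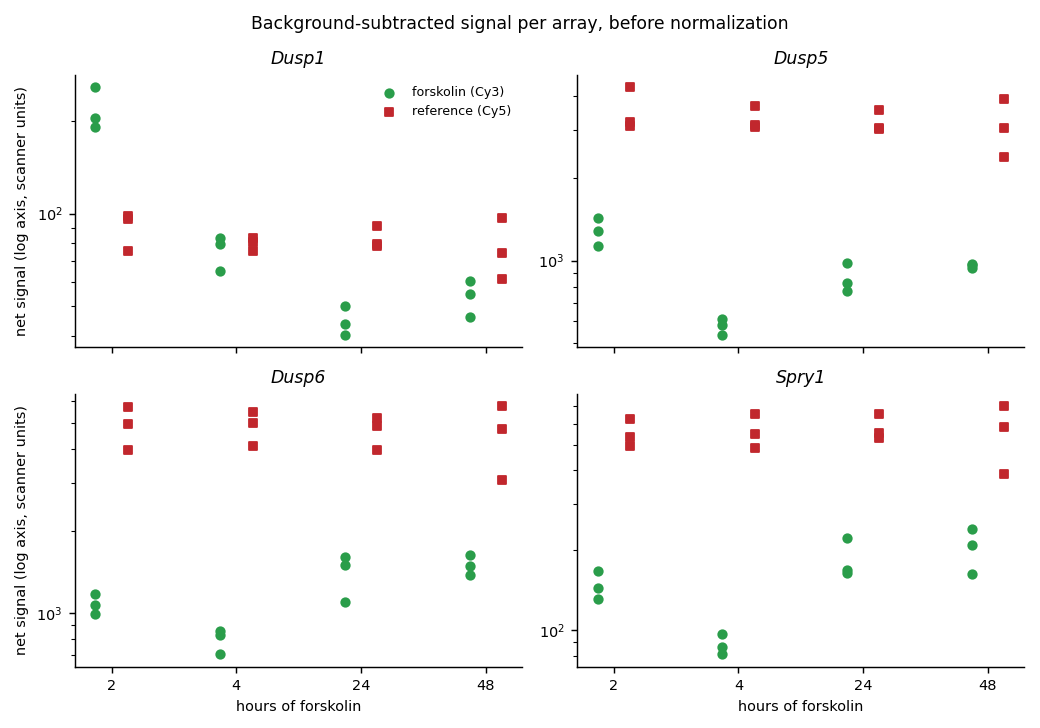
Background-subtracted signal before normalization (log axis, scanner units) against hours of forskolin for Dusp1, Dusp5, Dusp6 and Spry1, with forskolin (Cy3, green circles) left of the reference (Cy5, red squares) and 1 point per array. Dusp1 forskolin signals average 218 at 2 h and 75.9 at 4 h, and Dusp5 forskolin signals average 1287 at 2 h and 576 at 4 h, while reference signals show no such step. The vertical scale differs between panels.

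Dusp2 encodes a nuclear phosphatase first known from activated lymphocytes. Its log2 ratios were 0.60, 0.82 and 0.65 at 2 h, -0.25, -0.12 and -0.19 at 4 h, -0.15, -0.12 and -0.12 at 24 h, and -0.40, -0.32 and -0.70 at 48 h. It stood above the reference on the 3 arrays of 2 h and below it on the 9 later arrays, with no overlap. The rise at 2 h was 0.69 ± 0.12 (SD, n = 3, adjusted p = 6.93e-06, or 1.61-fold) and the fall at 48 h was -0.47 ± 0.20 (adjusted p = 2.03e-05). With median centring the 2 h value was 0.10 (adjusted p = 0.301), or 0.67 above the median of all genes. The small value at 4 h, -0.19 ± 0.06 (adjusted p = 0.0263), lost its call without 4 h replicate 1 (adjusted p = 0.14) or replicate 3 (adjusted p = 0.0902).

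Dusp4, a nuclear phosphatase induced by ERK in many cells, gave 0.35, 0.38 and 0.34 at 2 h. Later arrays ranged from -0.03 to 0.16 at 4 h, from -0.18 to 0.23 at 24 h and from 0.08 to 0.25 at 48 h. The 2 h arrays lay above the 9 later ones. The rise at 2 h was 0.35 ± 0.02 (SD, n = 3, adjusted p = 0.00141), and that at 48 h, 0.17 ± 0.09 (adjusted p = 0.0354), was lost without 48 h replicate 2 (0.14, adjusted p = 0.187) or replicate 3 (0.16, adjusted p = 0.115). With median centring Dusp4 was -0.16, -0.40, -0.31 and -0.24 at the 4 times, each of which is above the median of all genes, by 0.42, 0.18, 0.13 and 0.22.

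Dusp5 encodes a nuclear phosphatase selective for ERK. Its log2 ratios were 0.37, 0.30 and 0.24 at 2 h, -0.71, -0.80 and -0.78 at 4 h, -0.16, -0.23 and -0.26 at 24 h, and -0.11, -0.04 and -0.11 at 48 h. The 4 h arrays lay below the 9 others and the 2 h arrays above them. The value was 0.30 ± 0.07 (SD, n = 3, adjusted p = 0.000161) at 2 h and -0.76 ± 0.05 (adjusted p = 4.96e-09) at 4 h. At 24 h it was -0.22 ± 0.05 (adjusted p = 0.000489), and at 48 h -0.09 ± 0.04 (adjusted p = 0.0763), which was not called. The direction at 2 h depends on loess: with median centring Dusp5 was -0.86 there (adjusted p = 2.46e-08), or -0.28 against the median of all genes. The step from 2 to 4 h did not depend on it, but the differences of 24 h and 48 h from 2 h were not called with median centring. Forskolin signals averaged 1287 ± 153 units at 2 h, 576 ± 38.4 at 4 h, 861 ± 109 on the 24 h and 957 ± 17.1 on the 48 h arrays, against 3552 ± 675, 3299 ± 330, 3214 ± 302 and 3121 ± 760 units in the reference channel.

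Dusp6 encodes the cytoplasmic phosphatase of ERK and is widely used as a readout of growth factor signalling. Its log2 ratios were -0.44, -0.29 and -0.43 at 2 h, -0.79, -0.84 and -0.91 at 4 h, 0.03, 0.00 and -0.13 at 24 h, and 0.00, 0.13 and 0.09 at 48 h. All 6 early arrays lay below all 6 late ones. The fall was -0.39 ± 0.08 (SD, n = 3, adjusted p = 6.88e-05) at 2 h and -0.85 ± 0.06 (adjusted p = 7.33e-09, or 1.80-fold lower) at 4 h. Values of -0.03 ± 0.09 at 24 h (adjusted p = 0.595) and 0.07 ± 0.06 at 48 h (adjusted p = 0.211) were not called. With median centring both late values were below 0, at -1.09 and -1.04, or -0.64 and -0.58 against the median of all genes, so the level it came back to is not settled. This probe was among the brighter ones: its reference signal was 3086 to 5743 units over the 12 arrays.

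Dusp10, a phosphatase selective for JNK and p38, gave signals of 7.06 to 15.2 units for forskolin RNA and 3.86 to 23.9 for reference RNA over the 12 arrays. No fold is given because neither channel was well above background on any array.

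Spry1 encodes a Sprouty protein induced by growth factor receptors. The brighter of its 2 probes gave -0.04, -0.30 and -0.29 at 2 h, -0.75, -0.86 and -0.75 at 4 h, 0.00, -0.17 and -0.12 at 24 h, and 0.19, -0.04 and -0.16 at 48 h. The 4 h arrays lay below the 9 others, and the 48 h arrays lay on both sides of 0. With median centring Spry1 was -0.83 at 24 h and -0.79 at 48 h, or -0.39 and -0.33 against the median of all genes, so its late level is not settled either. The fall at 4 h was -0.79 ± 0.06 (SD, n = 3, adjusted p = 4e-07, or 1.73-fold lower). The fall at 2 h, -0.21 ± 0.15 (adjusted p = 0.0294), was lost without 2 h replicate 2 (-0.16, adjusted p = 0.183) or replicate 3 (-0.17, adjusted p = 0.187). Forskolin signals of this probe averaged 147 ± 18.3 units at 2 h and 88.2 ± 8.14 at 4 h, against 551 ± 66.8 and 562 ± 84.5 in the reference channel.

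The second Spry1 probe lies on chr2:124166769-124166828 (rn3, plus strand) and was far dimmer. It was well above background in the forskolin channel on 0 of the 3 arrays at 4 h. The reference there averaged 1.12-fold higher, with forskolin signals set to no less than the lowest one called well above background. Fitted over all kept probes, it gave 0.09 at 2 h (adjusted p = 0.281) and -0.18 at 4 h (adjusted p = 0.0282), so the probes share the sign at 4 h and not at 2 h.

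Spry2 gave 0.31, 0.17 and 0.17 at 2 h, and later means of -0.09 ± 0.06, -0.10 ± 0.07 and 0.13 ± 0.29 (SD, n = 3) at 4, 24 and 48 h. It was called at 0 of the 4 times: the 2 h value of 0.21 ± 0.08 had an adjusted p of 0.054 and the 95% interval of its log2 ratio ran from 0.05 to 0.38. With the slide, which carries the replicate number, as a block, the 2 h value was called (adjusted p = 0.0151). With median centring Spry2 was -0.46 at 2 h and -0.45 at 48 h, or 0.11 and 0.00 against the median of all genes. Spry4 was near background. Its probe was well above background in the forskolin channel on 0 of 12 arrays and in the reference channel on 8 of 12. At 2 h all 3 arrays measured the reference. It averaged 1.18-fold higher, with forskolin signals set to no less than the lowest one called well above background. The fitted log2 ratio was -0.25 (95% interval -0.42 to -0.08, adjusted p = 0.0305). The probe passed the filter only through the reference channel at 2 h, which favours a negative ratio there. This interval and call are therefore not independent of the filter. The reference was well above background on 2, 2 and 1 of 3 arrays at 4, 24 and 48 h. The fitted ratios there were -0.16 (adjusted p = 0.122), -0.09 (adjusted p = 0.34) and -0.20 (adjusted p = 0.0495), and 24 h replicate 2 lay above 0. With the slide as a block the 4 h value was called (adjusted p = 0.0255). With median centring Spry4 was 0.37 above the median of all genes at 2 h. Both Spry4 calls were lost without 1 of several arrays, among them 2 h replicate 1 (adjusted p = 0.15 at 2 h) and 48 h replicate 1 (adjusted p = 0.441 at 48 h).

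Spred1 encodes a Ras-pathway inhibitor that brings neurofibromin to the membrane. Its brightest probe gave 0.02, 0.02 and 0.01 at 2 h, -0.31, -0.34 and -0.47 at 4 h, -0.25, -0.28 and -0.20 at 24 h, and -0.05, -0.10 and -0.15 at 48 h. The 2 h arrays stood above all the others, and the 4 h arrays below all the others. The fall was -0.37 ± 0.08 (SD, n = 3, adjusted p = 4.15e-06) at 4 h and -0.24 ± 0.04 (adjusted p = 0.000161) at 24 h. The value at 48 h, -0.10 ± 0.05 (adjusted p = 0.0446), lost its call without any 1 of several arrays, such as 48 h replicate 3 (-0.08, adjusted p = 0.205). With median centring the 2 h value was -0.67, or -0.09 against the median of all genes.

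The other 3 Spred1 probes are shown because they read nearby stretches of the same gene and did not all give this course. They lie on the plus strand of rn3 at chr3:103144528-103144587, chr3:103146442-103146501 and chr3:103139984-103140043, in the order printed.
Spred1 (probe 2): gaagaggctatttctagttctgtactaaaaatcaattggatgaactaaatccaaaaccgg
Spred1 (probe 3): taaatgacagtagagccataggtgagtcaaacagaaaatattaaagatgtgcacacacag
Spred1 (probe 4): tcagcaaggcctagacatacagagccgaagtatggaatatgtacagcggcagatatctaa

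Probe 2 also fell at 4 h (-0.28 ± 0.06, SD, n = 3, adjusted p = 0.000237 over all probes) but was at 0.00 at 24 h (adjusted p = 0.981). Probes 3 and 4, whose forskolin signals averaged 17.8 to 36.6 units at the 4 times, gave -0.03 (adjusted p = 0.724) and -0.09 (adjusted p = 0.167) at 4 h. With the mean of all kept probes in place of the brightest, Spred1 was -0.05 at 24 h (adjusted p = 0.278) and the 4 h minus 2 h difference was -0.13 (adjusted p = 0.131).

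Against the reference, 7 of the 9 tested genes were called at 2 h, where 28.3% of all genes were. Of these, 4 rose and 3 fell, beside 10.0% and 18.3% of all genes. At 4 h, 6 were called (49.6% of all genes), of which 1 rose (19.5%) and 5 fell (30.1%). At 24 h, 3 were called (53.2%), with 1 risen (24.1%) and 2 fallen (29.1%), and at 48 h 5 (57.2%), with 2 risen (26.9%) and 3 fallen (30.3%). The fallen genes at 2 h and at 48 h include Spry4, whose probe passed the filter only through the reference channel at 2 h. Its call at 2 h is therefore not independent of the filter. At 24 and 48 h the share of these genes that was called was not above that of all genes. Their median log2 ratio was 0.21, -0.19, -0.10 and 0.00 at 2, 4, 24 and 48 h, beside -0.02, -0.03, -0.02 and -0.02 for all genes. With median centring the split was 1 risen and 5 fallen at 2 h, 1 and 7 at 4 h, and 0 and 7 at both late times. Of all genes under that setting, 1.27%, 1.84%, 3.01% and 4.06% were called higher and 75.9%, 76.2%, 69.8% and 69.8% lower at 2, 4, 24 and 48 h. Over the kept probes, 8, 8, 3 and 4 of the 13 were called at the 4 times, where 27.3%, 48.8%, 51.8% and 55.9% of all probes were called.

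Differences between time points leave out any dye effect that is constant over arrays, and median centring moved the median of all genes by at most 0.07 there. An effect of position on the slide would remain in them, because position goes with time. Between 2 and 4 h, 6 of the 9 genes fell and 0 rose, where 15.6% of all genes were called, 10.1% fell and 5.54% rose. Dusp1 was 0.85 at 4 h, against 2.04 at 2 h, a difference of -1.19 (95% interval -1.44 to -0.94, adjusted p = 9.8e-06). Dusp5 differed by -1.07 (-1.19 to -0.94, adjusted p = 4.9e-08), Dusp2 by -0.88 (-1.07 to -0.68, adjusted p = 1.72e-05) and Spry1 by -0.58 (-0.78 to -0.38, adjusted p = 0.000802). Dusp6 differed by -0.46 (adjusted p = 0.000308) and Spred1 by -0.39 (adjusted p = 0.000349). Under median centring these last 2 were of like size but were not called, at -0.44 (adjusted p = 0.174) and -0.37 (adjusted p = 0.107). Dusp4 (-0.28, adjusted p = 0.0524) and Spry2 (-0.31, adjusted p = 0.0803) missed the threshold, but both were called with the slide as a block (adjusted p = 0.014 and 0.023). Spry4 was near background. By their brightest probes, 8 of these 9 genes gave a negative difference, called or not, Spry4 being the exception. The median difference of all genes was -0.008. Their share below 0 was not counted, so the 8 cannot be set against all genes. Spred1 probes 3 and 4 did not fall, with means of -0.04 and -0.10 at 2 h and -0.03 and -0.09 at 4 h. The dimmer Spry1 probe differed by -0.27, which was not called (adjusted p = 0.0521 over all probes).

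The genes parted between 4 and 24 h, when 38.7% of all genes were called, 21.0% risen and 17.8% fallen. Of the 9 feedback genes, 3 rose and 1 fell. Dusp6 rose by 0.81 (95% interval 0.67 to 0.96, adjusted p = 3.2e-07), Spry1 by 0.69 (0.49 to 0.89, adjusted p = 4.17e-05) and Dusp5 by 0.55 (0.42 to 0.67, adjusted p = 3.8e-06). Dusp1 fell further, by 0.63 on the log2 scale (adjusted p = 0.000583). The signs of these 4 differences were the same under each of the 11 ways of processing. Dusp2 (0.06, adjusted p = 0.662) and Dusp4 (0.00, adjusted p = 0.983) showed no detectable difference between these times.

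Between 24 and 48 h only 1 of the 9 genes was called, where 14.8% of all genes were and 6.78% fell: Dusp2 fell by 0.35 on the log2 scale (adjusted p = 0.0186), a call that was lost without 24 h replicate 2 or replicate 3. Set against 2 h, where 34.6% of all genes were called, 1 gene rose (18.1% of all genes) and 6 fell (16.6%) at 24 h. At 48 h against 2 h, where 41.7% were called, 1 rose (21.6%) and 3 fell (20.1%). The riser was Dusp6 at both times. With median centring, 13.3% of all genes were called for 24 h minus 2 h. Dusp1, Dusp2 and Dusp6 kept their calls there. Dusp4 (adjusted p = 0.518), Dusp5 (0.0744), Spry2 (0.346) and Spred1 (0.587) lost theirs. Dusp5 also lost its call for 48 h minus 2 h (adjusted p = 0.14), where 18.9% of all genes were called. Between 4 and 48 h, where 47.2% were called, 4 rose (24.8%) and 2 fell (22.3%).

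**Figure D3:**
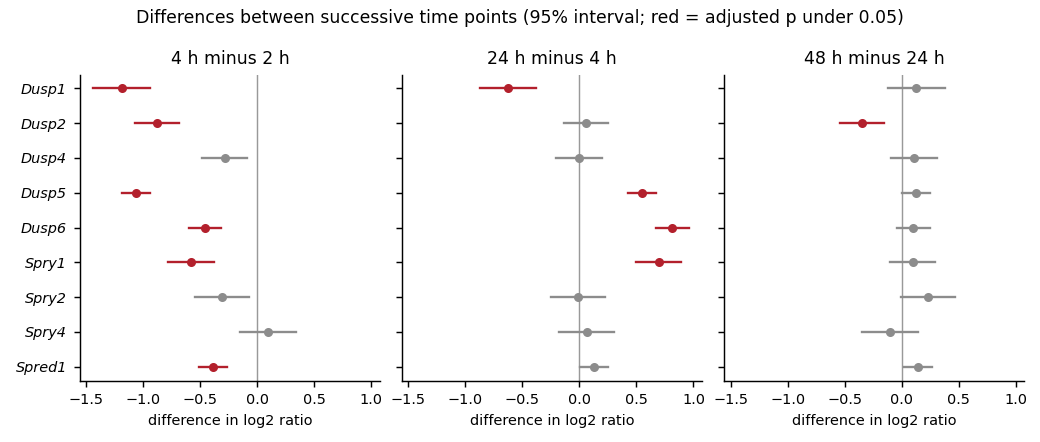
Difference in log2 ratio between successive time points, later minus earlier (horizontal axis), for each gene, with bars for the 95% interval from limma and red for an adjusted p under 0.05. Dusp1 and Dusp5 lie at -1.19 and -1.07 for 4 h minus 2 h, while Dusp5, Dusp6 and Spry1 lie at 0.55, 0.81 and 0.69 for 24 h minus 4 h.

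An F test over the 4 times called 7 of the 9 genes, where 53.3% of all genes were called. Its adjusted p was 2.09e-08 for Dusp5, 3.83e-08 for Dusp1, 1.55e-07 for Dusp6, 5.41e-07 for Dusp2, 2.69e-05 for Spry1, 0.000257 for Spred1 and 0.0472 for Dusp4. Spry2 (adjusted p = 0.0524) and Spry4 (adjusted p = 0.641) were not called. In order of level, Dusp1 stood highest at 2 h, then 4 h, each apart from the next, and 48 and 24 h did not differ (adjusted p = 0.531). For Dusp5 the order was 2 h, 48 h, 24 h and 4 h, of which 48 and 24 h did not differ beyond their spread (adjusted p = 0.175). With median centring the 2 h level of Dusp5 was not told apart from 48 h (adjusted p = 0.14) or 24 h (adjusted p = 0.0744) either.

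**Figure D4:**
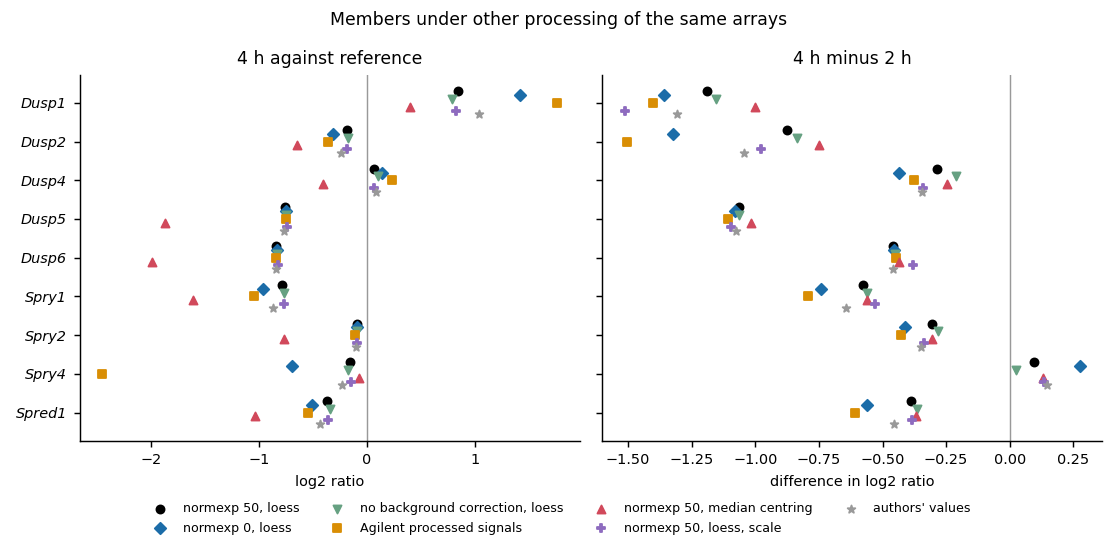
Mean log2 ratio at 4 h (left) and difference of 4 h minus 2 h (right) for each gene under 7 ways of processing the same arrays, 1 symbol per way. Median centring (red triangles) moves the ratios against the reference of Dusp5 to -1.87 and of Dusp6 to -1.99, but moves the differences between times less, to -1.02 and -0.44.

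The gene lists that follow are read against 28.3%, 49.6%, 53.2% and 57.2% of all genes called at 2, 4, 24 and 48 h. Of all genes, 10.0%, 19.5%, 24.1% and 26.9% rose, and 18.3%, 30.1%, 29.1% and 30.3% fell. Among other MAP kinase phosphatases and Sprouty relatives, 6 of 11 listed were tested. Of these, 0 rose and 1 fell at 2 h, 1 and 2 at 4 h, 0 and 1 at 24 h, and 1 and 2 at 48 h. Dusp3, a small phosphatase of ERK and JNK, rose by 0.39 ± 0.01 at 4 h (SD, n = 3, adjusted p = 7.38e-07), when Dusp22 fell by 0.16 (adjusted p = 0.0105). Dusp9, a cytoplasmic ERK phosphatase related to Dusp6, was lower by 0.67 at 48 h (-0.67 ± 0.06, adjusted p = 8.69e-09). Spred2, the close relative of Spred1, was 0.14 ± 0.06 at 48 h (adjusted p = 0.0274).

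Components of the cascade from Ras to ERK were called in 6 of 24 tested genes at 2 h (4 rose, 2 fell), 13 at 4 h (6 and 7), 16 at 24 h (10 and 6) and 16 at 48 h (9 and 7). Rras, a small GTPase related to Ras, was -0.54 ± 0.01 at 4 h and 0.88 ± 0.07 at 48 h (adjusted p = 4.84e-08 and 1.4e-10). Araf, a Raf kinase gene, rose by 0.56 ± 0.15 at 48 h (adjusted p = 3.77e-07), and Rps6ka1, a kinase activated by ERK, was -0.48 ± 0.11 at 4 h (adjusted p = 2.43e-06). The list's median was 0.01 at 4 h and 0.05 at 48 h, and with median centring it was -0.27 and -0.35 against the median of all genes.

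In the JNK and p38 cascade, on which Dusp1 also acts, 7 of 14 tested genes were called at 2 h (6 rose, 1 fell), 11 at 4 h (9 and 2), 9 at 24 h (6 and 3) and 11 at 48 h (6 and 5). Mapkapk2, a kinase downstream of p38, rose by 1.23 ± 0.09 at 4 h (adjusted p = 4.43e-08). Jun, the transcription factor that JNK phosphorylates, rose by 1.07 ± 0.12 at 2 h (adjusted p = 2.31e-08). Mapk8, which encodes JNK1, was -0.82 ± 0.02 at 48 h (adjusted p = 4.3e-10) and Mapk9, which encodes JNK2, -0.55 ± 0.04 at 4 h (adjusted p = 1.18e-07).

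Of 15 tested genes for other negative regulators of receptors and Ras, 6 were called at 2 h (4 rose, 2 fell), 9 at 4 h (3 and 6), 9 at 24 h (5 and 4) and 7 at 48 h (5 and 2). Dok4, an adaptor of receptor tyrosine kinases, was -1.51 ± 0.04 at 4 h (adjusted p = 1.54e-12), and Ptpre, a receptor-type tyrosine phosphatase, was -1.002 ± 0.08 (adjusted p = 6.46e-10). Sh2b3, an adaptor that dampens cytokine and growth factor receptors, was -0.92 ± 0.02 at 4 h and 0.88 ± 0.02 at 24 h (adjusted p = 4.79e-10 and 3.38e-10). Lrig1, which lowers the level of ErbB receptors, was 0.83 ± 0.14 at 48 h (adjusted p = 2.48e-08).

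Of 11 tested growth factor receptor genes, 2 rose and 5 fell at 2 h, 4 and 6 at 4 h, 4 and 2 at 24 h, and 6 and 2 at 48 h. Ret was -1.06 ± 0.04 (adjusted p = 4.82e-10) and Ntrk3 -0.68 ± 0.11 (adjusted p = 1.33e-06) at 4 h, while Fgfr2 was 1.45 ± 0.04 (adjusted p = 2.87e-10). Pdgfrb was 1.08 ± 0.02 at 24 h (adjusted p = 4.86e-10). The list's median was -0.26 at 4 h, when Dusp5, Dusp6 and Spry1 were lowest, but 0.07 against the median of all genes with median centring.

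Transcripts known to follow ERK activity in other cells also moved both ways. Of 21 tested, 7 rose and 5 fell at 2 h, 6 and 10 at 4 h, 5 and 9 at 24 h, and 5 and 10 at 48 h. Egr1, an immediate-early gene for a zinc-finger factor, was -1.70 ± 0.08, -3.01 ± 0.10 and -3.42 ± 0.15 at 2, 4 and 48 h (adjusted p = 1.01e-10, 1.36e-13 and 6.94e-14). Klf10 was -2.55 ± 0.07 at 4 h (adjusted p = 1.36e-13). Junb was 1.78 ± 0.06 at 2 h and -0.28 ± 0.07 at 4 h (adjusted p = 7.5e-10 and 0.00398), and Ier3 was 2.12 ± 0.07 at 4 h (adjusted p = 5.72e-12). The list's median was -0.08 at 4 h, and with median centring it was -0.61 against the median of all genes.

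**Figure D5:**
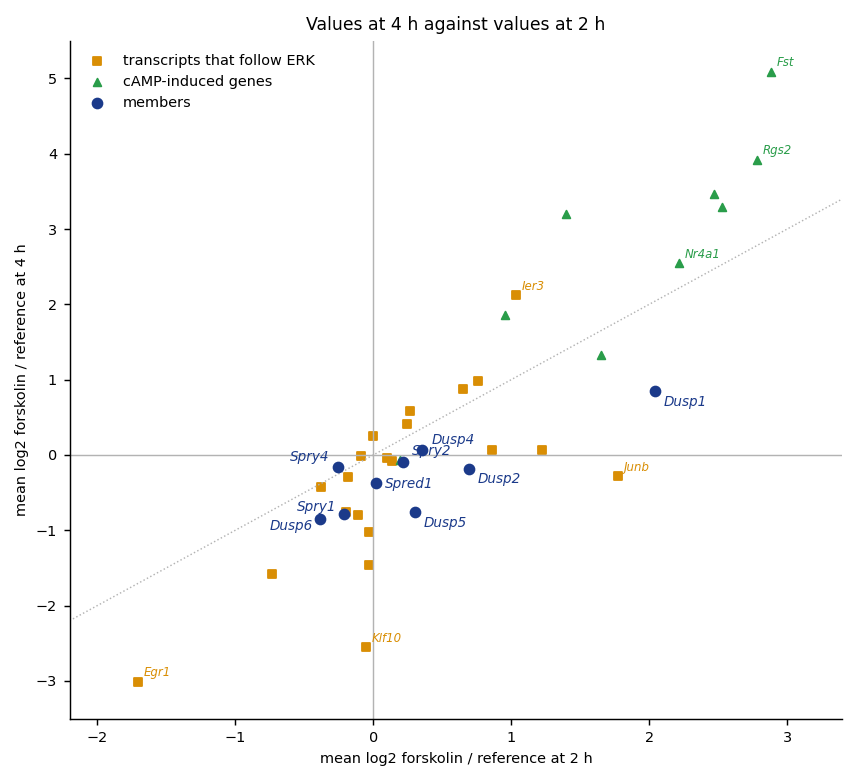
Mean log2 ratio of forskolin over reference at 4 h (vertical axis) against that at 2 h (horizontal axis), with 1 point per gene (mean of 3 arrays) for the 9 feedback genes (blue circles), transcripts that follow ERK (orange squares) and genes induced by cyclic AMP (green triangles), and a dotted line of equal values. Dusp1, at 2.04 and 0.85, lies below the line, whereas Fst and Rgs2 lie above it, at 5.09 and 3.92 on the vertical axis. With median centring Dusp5 lies at -0.86 on the horizontal axis.

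Genes induced by cyclic AMP were higher in 9, 8, 5 and 5 of 9 tested at the 4 times and lower in 0, 0, 0 and 1. Fst, for the activin-binding protein follistatin, was 5.09 ± 0.05 and Rgs2, for a regulator of G protein signalling, 3.92 ± 0.01 at 4 h, the highest of their 4 means (adjusted p = 4.06e-17 and 5.13e-16). Nr4a1 was -0.46 ± 0.03 at 48 h (adjusted p = 5.09e-06).

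The genes whose ratios lay closest to those of Dusp1 over the 12 arrays, by root mean square difference among 9335 named genes, were Adm (0.283), Sgk1 (0.383) and Nr4a2 (0.390). Adm encodes the peptide adrenomedullin, Sgk1 a serum- and hormone-induced kinase and Nr4a2 an orphan nuclear receptor. Adm had means of 1.95, 0.94, 0.64 and 0.51 at 2, 4, 24 and 48 h, and Pearson's r with Dusp1 was 0.961 over the 12 arrays, which share the reference and the 4 time points. Sgk1 had means of 2.19, 1.25, -0.20 and -0.04. Dusp1 was the only 1 of the 9 genes to pass 1 in size on the log2 scale, so no others were matched.

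Neuronal markers moved at the late times: of 18 tested, 13 rose and 2 fell at 48 h, with a median of 0.38, while 3 rose and 3 fell at 2 h, with a median of -0.07. The 48 h median of these markers turned with median centring, to -0.12 against that of all genes. Glial markers had medians of -0.13 to -0.18 at the 4 times over 3 tested genes, and fibroblast markers of -0.06 to -0.19 over 4. With median centring their 48 h medians were 0.04 and 0.07 against that of all genes. Leukocyte markers had 0 of 2 called at each time, and endothelial markers 1 risen at 4 h and 1 risen and 1 fallen at 24 h. Their part in the values of the feedback genes was not tested. In such bulk samples, fewer cells of a type and less RNA per cell cannot be told apart.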

How the data were processed

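Per the file headers, the two-colour rat arrays were read with Feature Extraction 9.5.1.1, and probe positions are in rn3. The deposited scanner files hold the mean intensity of each spot and its local background in both channels. The authors' value table holds log2 ratios. For these values limma is named in the submitters' processing notes, with no version, and no normalization is stated. The value table correlated at 0.997 to 0.999 with the scanner's red over green ratios at bright spots, with column medians of 0.007 to 0.012.

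Intensities were corrected by normexp (offset 50) and normalized by within-array loess in limma 3.58.1 (R 4.3.3; data.table, version 1.17.8), with control spots at weight 0. Outlier-flagged spots were left out, spots of a probe were averaged, and 2 run-on rows of 1 file were split. A probe was kept, as 20630 of 41012 were, if either channel was well above background on the 3 arrays of some time point, and the brightest stood for its gene. One limma fit to 12 arrays (8 residual degrees of freedom) tested each time against 0, time points against each other and all times by F, with Benjamini-Hochberg adjustment over 17805 genes. The fit was tested on simulated data.

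The members and gene lists were chosen with earlier results of these data known, so counts over them are descriptions. Named from each list were at most the 2 called genes with the largest rise and the 2 with the largest fall at any time. For members past 1 in size on the log2 scale, the 3 closest genes were named. Lists covered MAP kinase phosphatase relatives, the Ras to ERK and JNK and p38 cascades, other negative regulators, ERK-following transcripts, growth factor receptors, cyclic AMP targets, and neuronal, glial, fibroblast, leukocyte and endothelial markers. Replicate number marks the slide and position on it the time, so an effect of position and one of time cannot be told apart. Deviations of same-numbered arrays correlated at 0.05 to 0.47 and those of other pairs at -0.40 to 0.30, and 8 of 12 arrays correlated best with their own number. The main fit did not take the numbers as pairs, so any slide effect stays in its spread. The slide as a block was fitted as an alternative. Alternatives were other background corrections, normalizations, filters and probe summaries, Agilent's processed signals, the authors' values, a replicate block and leaving out each array.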

Additional observations from a re-analysis of the deposited data

Results flagged for a closer look

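For 8 of the 9 tested genes, a limma contrast between 2 time points differed with an adjusted p under 0.05, and the widest such contrast is given for each. The share of all genes with at least 1 such contrast was not counted, so the 8 cannot be set against all genes. Single contrasts called 14.8% to 47.2% of all genes and the F test 53.3%. Spry2 was not called by the F test (adjusted p = 0.0524). Dusp1 had a difference of -1.82 for 24 h minus 2 h, and Dusp2 of -1.17 for 48 h minus 2 h. Dusp4 had -0.29 and Spry2 -0.32 for 24 h minus 2 h, neither of them called with median centring (adjusted p = 0.518 and 0.346). Dusp5 had -1.07 and Spred1 -0.39 for 4 h minus 2 h, and the Spred1 difference was not called with median centring (adjusted p = 0.107). Dusp6 had 0.92 and Spry1 0.79 for 48 h minus 4 h. Spry4, near background throughout, had no such difference.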

How the results depend on the processing

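Median centring in place of loess turned 10 values against the reference: at 2 h Dusp4 (-0.16), Dusp5 (-0.86), Spry2 (-0.46) and Spred1 (-0.67), at 4 h Dusp4 (-0.40), at 24 h Dusp1 (-0.057) and Dusp4 (-0.31), and at 48 h Dusp4 (-0.24), Dusp6 (-1.04) and Spry2 (-0.45). It called 7 genes (72.8% of all genes) and 8 probes at 24 h, and 8 probes at 48 h. For 48 h minus 24 h it called 0 genes (1.55% of all genes), and for 24 h minus 2 h 3 genes (13.3%). Shares of all probes under this setting, and of all genes or probes under the others or with arrays left out, were not counted. For those counts, a change in the members cannot be told from a change in all genes. At 48 h, 3 genes were called with a normexp offset of 0, with scaling between arrays and with the authors' values, and 2 genes and 2 probes without the filter. Scaling left 2 probes there. Without background correction 5 genes and 6 probes were called at 24 h. Agilent's processed signals called 5 probes at 24 h and 7 at 48 h, and gave Spry4, whose forskolin channel was near background, -2.45 at 4 h and -1.60 at 24 h. An offset of 0 called 5 probes at 2 h. Counts for 4 h minus 2 h and 24 h minus 4 h stayed within 1.5 times. With the replicate block, Spry2 at 2 h (adjusted p = 0.0151), Spry4 at 4 h (0.0255) and the 4 h minus 2 h differences of Dusp4 (0.014) and Spry2 (0.023) were called, and no other call of the genes at the 4 times or for 4 h minus 2 h and 24 h minus 4 h changed. The replicate numbers were not taken as pairs. With each array left out in turn, gene counts were 5 to 8 at 2 h, 5 to 6 at 4 h, 2 to 4 at 24 h, 3 to 5 at 48 h, 6 to 8 for 4 h minus 2 h, 4 for 24 h minus 4 h and 0 to 1 for 48 h minus 24 h, where 24 h replicate 2 or 3 ended the call. They were 5 to 7 for 24 h minus 2 h, 4 to 5 for 48 h minus 2 h, 5 to 6 for 48 h minus 4 h and 6 to 8 by F. Probe counts were 5 to 9, 6 to 8, 2 to 4 and 3 to 5 at the 4 times, the 5 at 2 h without 2 h replicate 3. At 48 h the gene count was 3 without any 1 of 2 h replicates 1 and 3, 4 h replicate 2, 24 h replicates 1 and 3 and 48 h replicates 2 and 3. The cause of these changes was not tested. Low signal over background and the offset compress ratios of dim probes (Dusp1, Dusp2, Dusp4), and 3 arrays per time, 1 dye orientation and 1 reference limit all values against the reference.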
